A study of Mus musculus with 6 samples.

Results

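The genes described here build the route by which proteins enter the endoplasmic reticulum (ER) and travel to the Golgi apparatus. The rule took them by symbol and used no measured values, but earlier results of these data were known when it was made. It took in the Sec11, Sec13, Sec16, Sec22, Sec23, Sec24, Sec31, Sec61, Sec62 and Sec63 genes, the Ssr, Tram, Tmed, Srp and Arf genes, and the subunits of the COPI coat. The rule found 57 of the 18193 genes that the array's annotation names, read by 126 probe sets. Of these 57 genes, 50 lay in the brighter part of the array and were tested among 9097 genes. The other 7 members, Copz2, Sec16b, Sec24b, Tmed2, Tmed6, Tmed11 and Tram2, were too dim and were not tested.

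The study measured RNA from mouse hippocampus on 6 Affymetrix arrays. Transgenic HuD, the product of Elavl4 and a neuronal RNA-binding protein of the ELAV family that binds AU- and U-rich stretches of mRNAs, was pulled down with anti-myc antibody on protein-G beads in 3 samples. The background control was 2 samples of RNA held by protein-G beads with non-immune IgG, and 1 sample held the total input RNA. The labels give no strain, age, promoter of the transgene or number of animals, and do not say whether arrays came from separate preparations. The p-values therefore reflect array-to-array spread alone, which may be technical. Whether the input and IgG samples came from the transgenic mice is not stated either.

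Proteins bound for secretion or for membranes are recognised as they are made by the signal recognition particle and passed to the Sec61 channel in the ER membrane, where helper proteins aid insertion and signal peptidase removes the targeting sequence. COPII-coated vesicles carry cargo from the ER, and COPI-coated vesicles, whose coat is recruited by ARF GTPases, return proteins to it. Cargo receptors of the p24 family sort passengers into both, and SNARE proteins such as Sec22b fuse the vesicles with their target. In neurons this route supplies the receptors, channels and adhesion molecules of the surface membrane.

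The promoters of 47 of the 57 members were held in a RefSeq table of the GRCm38.p6 assembly, as 53 windows from 250 bases before to 50 bases after a gene start. They were read for short motifs, among them those of the unfolded protein response, which is known to raise secretory genes. The motif TGACGTGG, a core of the unfolded protein response element, was found on either strand in 7 of the 53 windows, or 13.2%, against 0.676% of all 32851 windows and 0.998% of the 9721 windows of tested genes. These 7 windows belong to 6 genes, since both overlapping windows of Arf1 hold the same match. The stretches are shown because both coatomer genes Copb1 and Copb2, which went opposite ways in the HuD pulldown, carry the motif, as does Sec23a. Each is 30 bases long, is written so that the motif reads as TGACGTGG, and has the motif in capitals.
Arf1, chr11:59228228-59228257, minus strand: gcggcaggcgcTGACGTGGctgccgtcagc
Copb1, chr7:114254690-114254719, plus strand: aagtccttggcTGACGTGGaagggggcggg
Copb2, chr9:98563713-98563742, minus strand: ggccaacccacTGACGTGGaacttccggga
Sec16b, chr1:157506741-157506770, plus strand: ttctgtgtggcTGACGTGGcacggcagttt
Sec23a, chr12:59011993-59012022, minus strand: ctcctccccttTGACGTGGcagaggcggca
Sec24d, chr3:123267459-123267488, plus strand: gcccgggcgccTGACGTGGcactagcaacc

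Of these 6 genes, Copb1 and Sec23a were higher in the HuD than in the IgG pulldown, Copb2 was lower, Arf1 and Sec24d did not pass the threshold and Sec16b was not tested. Among the other motifs searched on both strands, 0 of the 53 windows held the ER stress element or the ER stress element II, which stood in 0.119% and 0.0365% of all windows. The shorter CCACG, which the motifs named so far contain on one strand, was in 71.7% of the members' windows, 47.1% of those of tested genes and 32.8% of all. GGGCGG was in 71.7%, 63.7% and 35.7%, TGACGTCA in 1.89%, 3.03% and 1.79%, and CCAAT in 35.8%, 36.5% and 37.4%. The windows say nothing of the 3′ ends of the mRNAs, which were not used here.

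Elavl4, the gene of the pulled-down protein, gave 2294, 2010 and 1689 on the HuD arrays, 766 and 642 on the IgG arrays and 597 in the input. Its log2 difference between HuD and IgG was 1.46 ± 0.25 (adjusted p = 0.00111). Values are array signals, differences are on the scale of log2(signal + 32) with their standard errors, and a gene is called higher or lower where limma's p, adjusted over all tested genes, is under 0.05. The arrays had been scaled to the same mean, taken without the lowest and highest 2% of signals. A gene's value is thus relative to the other signals of its array and is not its share of the RNA. The IgG arrays differed from each other more than the HuD arrays did, with an SD of log2 differences across genes of 0.616 against 0.314 to 0.457. Of 15 hippocampal neuron markers on the array 10 were bright enough to be tested. Among them Wfs1 and Neurod6 were at 778 and 717 in the input and C1ql2 at 83.1. Prox1, a marker of dentate granule cells, was not tested, at 9.80 in the input and 49.7 and 30.7 on the IgG arrays. Summed marker signals moved with the groups: 9 oligodendrocyte markers summed to 16941 to 20925 on HuD arrays, 26425 and 33118 on IgG arrays and 23412 in the input. For 8 microglia markers the sums were 1465 to 2031, 2873 and 4583, and 4412, and for 7 pan-neuronal markers, which include Elavl4, they were 25407 to 33966, 20136 and 21112, and 20584. Such sums rest largely on the brightest genes. On HuD array 1 Mbp, which was not called, gave 9976 of the 18535 for oligodendrocytes, and Snap25, called higher, gave 11136 of the 25878 for pan-neuronal markers. Tested markers were called higher or lower as follows: 2 (Neurod2 and Bcl11b) and 2 (Zbtb20 and Itpka) of 10 for hippocampal neurons, 0 and 6 of 9 for oligodendrocytes, 0 and 4 of 6 for microglia, 2 and 5 of 9 for astrocytes, 1 and 5 of 9 for interneurons, 0 and 2 of 5 for endothelial cells and pericytes and 2 and 1 of 7 for neurons in general. For 5 markers of choroid plexus and blood the sums were 12250 to 15368 with HuD, 16316 and 18673 with IgG and 9478 in the input. Ttr gave 8913 of that input sum, and 0 of the 3 tested were called in either direction. For 8 markers of other brain regions the sums were 1935 to 2342 with HuD, 879 and 959 with IgG and 1142 in the input, and 2 of the 4 tested, Drd1 and Tcf7l2, were higher. None of these markers was listed at 0, and their part in the results was not tested. Lower recovery of a marker's mRNA in the pulldown, fewer cells of a type and less RNA per cell cannot be told apart in such samples.

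The comparison of HuD with IgG pulldowns asks which mRNAs made up more of the signal with HuD than on control beads. Of the 50 tested members 16 were higher, 13 were lower and 21 did not pass, and every functional class with more than 3 tested genes, apart from the signal recognition particle and the translocon, had members called in both directions. Over all 9097 tested genes 21.5% were called higher and 34% lower, against 32% and 26% of the members. The members' median log2 difference was 0.21, which is 0.49 above the median of all tested genes of −0.28. Over the alternative settings that excess ran from 0.22 with quantile normalization to 0.70 without IgG array 2. It was 0.27 without IgG array 1 and 0.30 with probe sets averaged. The split of calls depended on scaling: with quantile normalization 18 members were higher and 10 lower, beside 2133 and 2273 of all tested genes. With each array centred on its 75th percentile, which moved the median of all genes to 0.03, 21 members were higher and 9 lower. The counts of all tested genes were then 2536 higher and 1702 lower. The values of all HuD arrays lay above those of both IgG arrays in 21 tested members and below them in 13, where 27.6% and 43.1% of all tested genes did so.

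**Figure D1:**
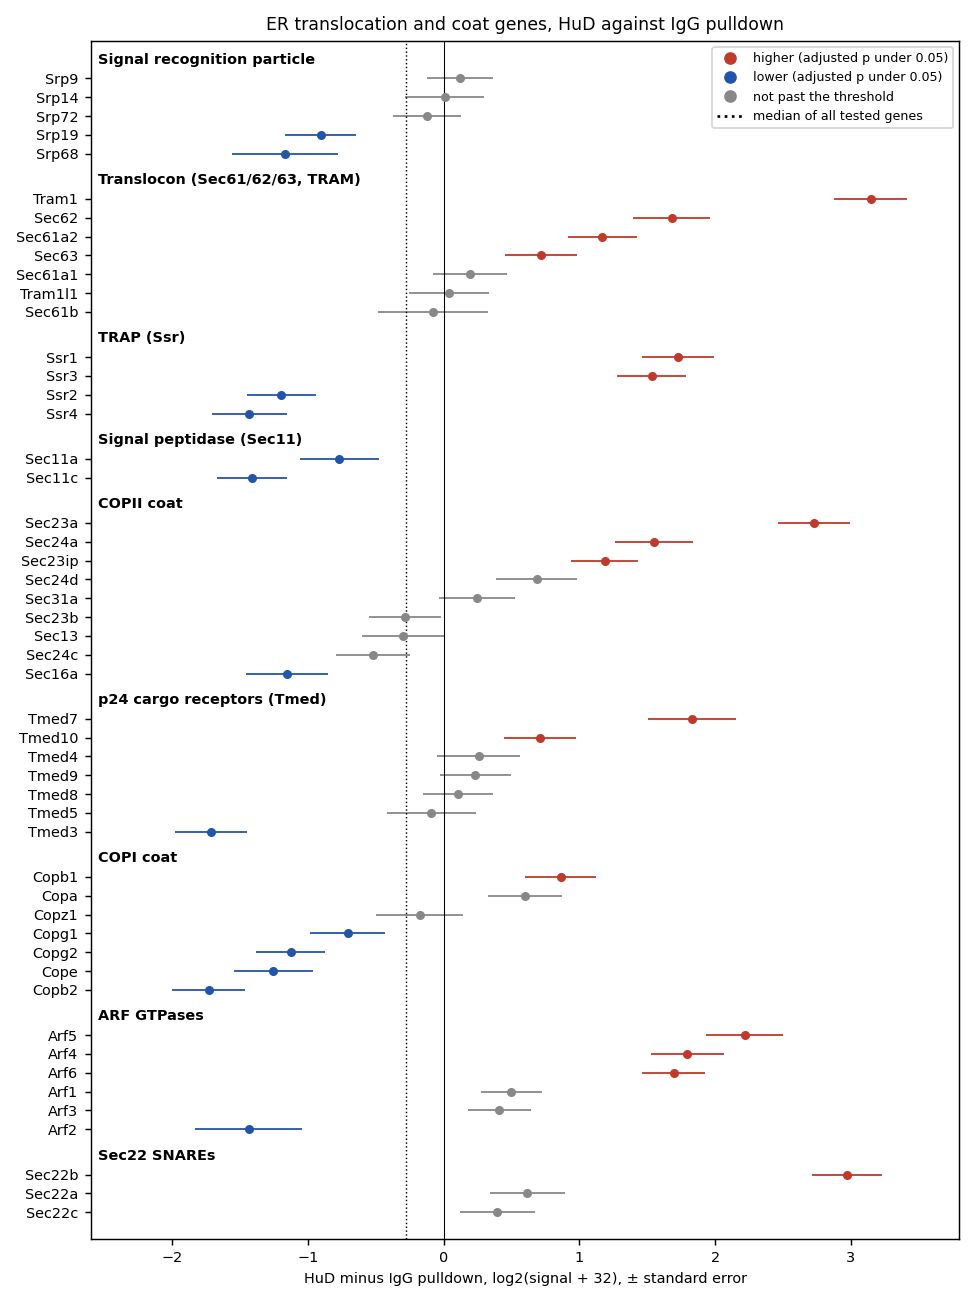
Log2 difference in signal between HuD and IgG pulldowns (x axis, log2(signal + 32)) for the 50 tested genes, by class, with bars for the standard error, red for genes called higher, blue for genes called lower and grey for genes not past the threshold. The dotted line is the median of all tested genes, −0.28; the values run from −1.73 for Copb2 to 3.15 for Tram1.

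**Figure D2:**
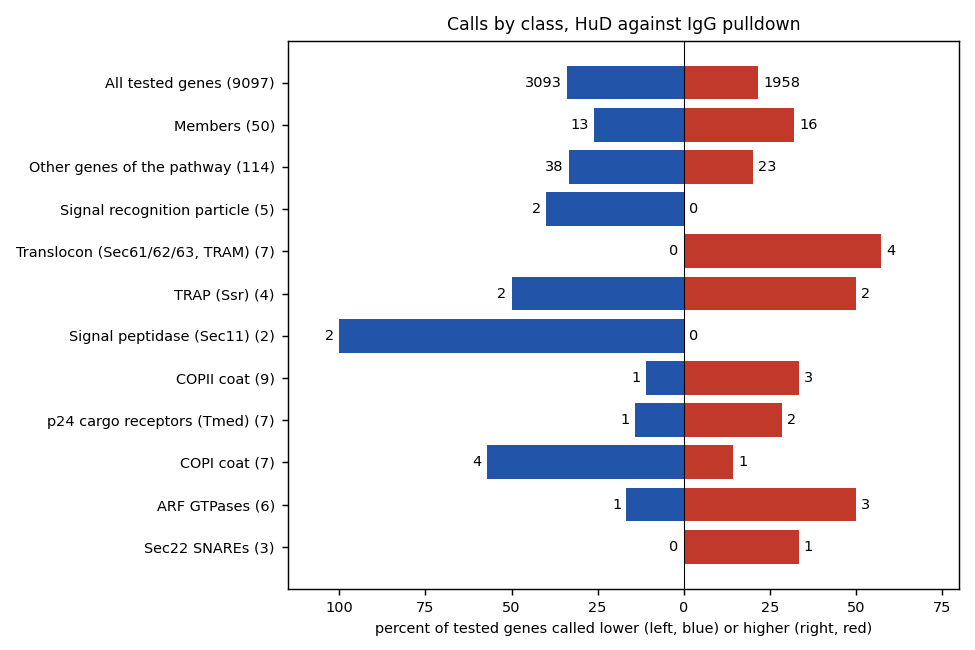
Percent of tested genes called higher (red, to the right) or lower (blue, to the left) in the HuD against the IgG pulldown, with the number called beside each bar and the number tested in brackets. The 50 members had 16 genes higher and 13 lower, and the classes with bars on both sides are TRAP, COPII, p24, COPI and ARF.

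The signal recognition particle, the cytosolic complex that catches new targeting sequences, had no member called higher and 2 of 5 called lower. Srp68, which binds the particle's RNA together with Srp72, had signals of 95.3, 241 and 94.4 on HuD arrays, 479 and 233 on IgG arrays and 614 in the input. HuD array 2 overlapped with IgG array 2, and the difference was −1.17 ± 0.39 (adjusted p = 0.0245). Srp19, which helps the particle to assemble, had 447, 530 and 415 with HuD, 768 and 1039 with IgG and 1110 in the input, so all HuD arrays lay below the rest (−0.91 ± 0.26, adjusted p = 0.0132). Srp72, at 543, 485 and 583 with HuD, 620 and 555 with IgG and 786 in the input, overlapped between the groups and did not pass (−0.12). Nor did Srp9 at 1957, 1607 and 1525 with HuD, 1401 and 1713 with IgG and 1589 in the input (0.12), or its partner Srp14 (0.01). Neither call held when single arrays were left out. Srp68 was at −0.99 without HuD array 1, −0.98 without HuD array 3 and −0.70 without IgG array 1, and in none of these fits past the threshold. For Srp19 the values that did not pass were −0.88 without HuD array 1, −0.83 without HuD array 3 and −0.70 without IgG array 2. Under 75th percentile centring neither passed (−0.85 and −0.59), and under quantile normalization Srp68 did not (−0.97).

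The translocon, the channel and its helpers in the ER membrane, had 4 of 7 tested members higher and none lower. Tram1, a membrane protein that contacts entering targeting sequences, was near-constant on the HuD arrays at 2415, 2353 and 2393, against 187 and 309 with IgG and 351 in the input. It was 8.86-fold higher than with IgG (3.15 ± 0.27, adjusted p = 0.000125), and a second, dimmer probe set was higher too (1.02). Sec62, a partner of the channel for proteins that enter after synthesis, had 3878, 3144 and 3685 with HuD, 800 and 1476 with IgG and 1488 in the input, a 3.20-fold difference (1.68 ± 0.28, adjusted p = 0.000989). Of its 4 other probe sets one was as high (1.73), while another bright one was at 0.50 and did not pass. The second isoform of the channel protein, Sec61a2, had 604, 569 and 555 with HuD, 273 and 207 with IgG and 318 in the input, so that all HuD arrays lay above the others (1.17 ± 0.25, adjusted p = 0.00327).

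Sec63, which joins Sec62 and the lumenal chaperone to the channel, had 470, 379 and 417 with HuD, 202 and 293 with IgG and 254 in the input (0.71 ± 0.27, adjusted p = 0.0392). Its other 4 probe sets were all at negative values, from −0.66 to −0.38, and none passed in the fit over all probe sets. With probe sets averaged the gene stood at −0.28, not past the threshold, and the call was also lost without HuD array 1 (0.64), 2 (0.78) or 3 (0.72) or IgG array 1 (0.48). The main channel protein, Sec61a1, was at 0.19 with none of its 6 probe sets past the threshold, and Tram1l1, a relative of Tram1, was at 0.04. The log2 ratio of Tram1 to Tram1l1 was 2.48, 3.03 and 2.92 on the HuD arrays, −0.33 and −0.26 on the IgG arrays and −0.79 in the input. That ratio, like the others between 2 members given here, was chosen after the values were seen and is a description. For Sec61b, the small β subunit, the IgG arrays stood far apart, at 518 and 1750, around HuD values of 939, 840 and 943. Its difference was −0.93 without IgG array 1 but 0.77 without IgG array 2. A fit that leaves out an IgG array keeps only the other, so a gene's own spread then comes from the HuD arrays alone. Passing the threshold in such a fit, here and for other genes, does not take the IgG spread into account.

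**Figure D3:**
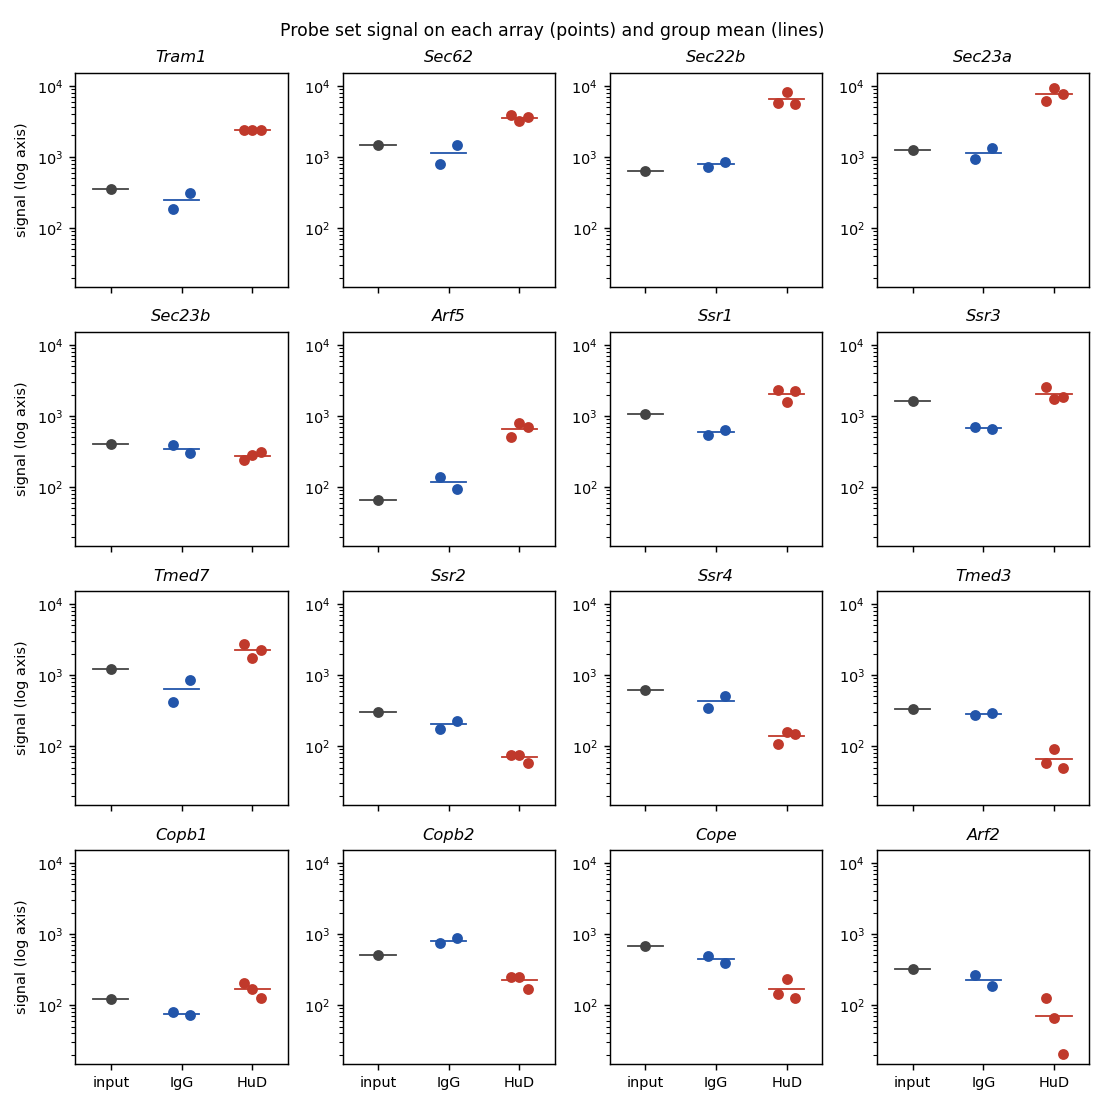
Probe set signal (log axis) on the input array, the 2 IgG arrays and the 3 HuD arrays for 16 genes, with a line at each group's mean. HuD arrays lie above both IgG arrays for Tram1, Sec62, Sec22b, Sec23a, Arf5, Ssr1, Ssr3, Tmed7 and Copb1 and below them for Ssr2, Ssr4, Tmed3, Copb2, Cope and Arf2, while Sec23b overlaps.

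The 4 subunits of the TRAP complex, which sits beside the channel and helps it to open for some proteins, divided evenly. Ssr1, the α subunit, had 2334, 1571 and 2220 with HuD, 539 and 638 with IgG and 1065 in the input and was 3.31-fold higher (1.72 ± 0.26, adjusted p = 0.000627). Ssr3, the γ subunit, had 2516, 1742 and 1853 with HuD, 690 and 658 with IgG and 1635 in the input and was 2.89-fold higher (1.53 ± 0.26, adjusted p = 0.000921). For both genes the IgG arrays lay below the input. Ssr2, the β subunit, went the other way, with 75.8, 76.0 and 57.4 on HuD arrays, 176 and 228 on IgG arrays and 305 in the input (−1.20 ± 0.25, adjusted p = 0.00277). Ssr4, the δ subunit, had 107, 157 and 148 with HuD, 348 and 507 with IgG and 622 in the input (−1.43 ± 0.28, adjusted p = 0.00185). All HuD arrays of these last genes lay below all other arrays. The log2 ratio of Ssr1 to Ssr2 was 4.46, 3.89 and 4.66 with HuD against 1.46 and 1.37 with IgG and 1.70 in the input, and that of Ssr3 to Ssr4 was 4.20, 3.23 and 3.39 against 0.92 and 0.36 and 1.35. With all probe sets of a gene averaged, Ssr1 (0.23) and Ssr4 (−0.47) no longer passed, and their other, dimmer probe sets lay between −0.69 and 0.13.

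Both Sec11 genes, the catalytic subunits of signal peptidase, were called lower. Sec11c had 596, 586 and 566 with HuD, 1329 and 1945 with IgG and 1674 in the input and was 2.67-fold lower (−1.42 ± 0.26, adjusted p = 0.00142). Sec11a had 241, 214 and 167 with HuD, 288 and 479 with IgG and 622 in the input, so that HuD array 1 came close to IgG array 1 (−0.77 ± 0.29, adjusted p = 0.0411). The call of Sec11a was lost without HuD array 1 (−0.87), 2 (−0.79) or 3 (−0.64), without IgG array 2 (−0.43), and with quantile normalization (−0.60) or 75th percentile centring (−0.45).

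The COPII coat had 3 of 9 tested members higher and 1 lower, and its paralogs parted. Sec23a, an inner coat protein that stimulates the GTPase Sar1, had 6018, 9419 and 7740 with HuD, 948 and 1326 with IgG and 1250 in the input, a 6.61-fold difference (2.73 ± 0.27, adjusted p = 0.000134). Its paralog Sec23b overlapped between the groups at 239, 279 and 315 with HuD, 394 and 299 with IgG and 401 in the input (−0.29 ± 0.26, not past the threshold). The log2 ratio of Sec23a to Sec23b was 4.48, 4.93 and 4.48 with HuD, 1.20 and 2.04 with IgG and 1.57 in the input. Sec24a, one of the proteins that pick cargo, had 331, 417 and 419 with HuD, 79.4 and 152 with IgG and 107 in the input (1.55 ± 0.29, adjusted p = 0.00151). Among its paralogs Sec24d was at 0.68 and Sec24c at −0.52, both short of the threshold, and Sec24b was not tested. Sec24d passed without HuD array 2 (0.90) and with quantile normalization (0.92) or 75th percentile centring (1.00), and without IgG array 2 Sec24c did (−0.83).

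Sec23ip, a partner of Sec23, had 678, 670 and 727 with HuD, 261 and 313 with IgG and 210 in the input (1.19 ± 0.25, adjusted p = 0.00276). A second probe set of Sec23ip at −0.33 and one of Sec24a at −0.68 did not pass, and with probe sets averaged neither gene passed (0.43 and 0.44). Sec16a, the scaffold of ER exit sites, was lower, with 233, 231 and 253 on HuD arrays, 803 and 402 on IgG arrays and 462 in the input (−1.15 ± 0.30, adjusted p = 0.00853). Its HuD values were alike while IgG array 1 stood high, and without that array the difference was −0.68 and did not pass. Of the outer coat, Sec31a (0.25) and Sec13 (−0.30) overlapped between the groups and did not pass.

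The p24 cargo receptors had 2 of 7 tested members higher and 1 lower. Tmed7 had 2731, 1708 and 2280 with HuD, 417 and 848 with IgG and 1233 in the input, a 3.55-fold difference (1.83 ± 0.32, adjusted p = 0.00123). Of its 4 other probe sets 2 were called higher as well, at 2.38 and 1.22, so it was among the 5 members with more than 1 probe set called. Tmed10, which is needed for the stability of other p24 proteins, had 3192, 2310 and 3296 with HuD, 1452 and 2125 with IgG and 2727 in the input (0.71 ± 0.27, adjusted p = 0.0401). That call was lost when HuD array 1 (0.64), HuD array 3 (0.62) or IgG array 1 (0.44) was dropped and with quantile normalization (0.50). Tmed3 was 3.28-fold lower, with 58.7, 91.6 and 48.6 on HuD arrays, 275 and 296 on IgG arrays and 330 in the input (−1.72 ± 0.27, adjusted p = 0.000681). The log2 ratio of Tmed7 to Tmed3 was 4.93, 3.81 and 4.84 with HuD, 0.55 and 1.42 with IgG and 1.81 in the input. Tmed4 had 566, 565 and 591 with HuD, 327 and 685 with IgG and 865 in the input, so its groups overlapped (0.26 ± 0.31), and it passed when IgG array 2 was left out (0.76). Tmed9 (0.23), Tmed8 (0.10) and Tmed5 (−0.09) did not pass.

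The COPI coat, or coatomer, had 4 of 7 tested subunits lower and 1 higher. Copb2, the β′ subunit of the outer shell, had 252, 247 and 168 with HuD, 744 and 869 with IgG and 506 in the input and was 3.32-fold lower (−1.73 ± 0.27, adjusted p = 0.000668). Cope, the ε subunit, had 144, 236 and 127 with HuD, 488 and 390 with IgG and 676 in the input (−1.26 ± 0.29, adjusted p = 0.00461). Copg2, a γ subunit, had 56.8, 78.3 and 55.5 with HuD, 198 and 156 with IgG and 339 in the input (−1.13 ± 0.25, adjusted p = 0.00372). All HuD arrays of these genes lay below all IgG arrays and the input, but IgG lay above the input only for Copb2. The other γ subunit, Copg1, was at −0.71 (adjusted p = 0.0454), and its call was lost when HuD array 1 (−0.64), HuD array 3 (−0.67) or IgG array 1 (−0.43) was dropped, and with quantile normalization (−0.69) or 75th percentile centring (−0.39).

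Copb1, the β subunit, which lies in the inner coat, was the member of the coat called higher, with 206, 169 and 126 on HuD arrays, 79.4 and 72.4 on IgG arrays and 124 in the input (0.86 ± 0.26, adjusted p = 0.0164). Its lowest HuD value was close to the input, and without HuD array 1 the difference was 0.73 and did not pass. The log2 ratio of Copb1 to Copb2 was −0.26, −0.47 and −0.34 with HuD, −2.80 and −3.11 with IgG and −1.79 in the input. Copa, the α subunit, lay above both IgG arrays on all HuD arrays but did not pass (0.60), except without IgG array 1 (0.95) or with 75th percentile centring (0.91). Copz1, a ζ subunit, was at −0.18 and did not pass. The remaining subunit, δ, is the product of Arcn1, which the rule by symbol does not take in and which was called higher (1.15).

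The ARF GTPases, small switches that recruit coats to membranes, had 3 of 6 members higher and 1 lower. Arf5 had 503, 797 and 692 with HuD, 138 and 95.3 with IgG and 66.7 in the input, a 4.65-fold difference (2.22 ± 0.28, adjusted p = 0.000283). Arf4, of the same class as Arf5, had 1197, 1706 and 1313 with HuD, 324 and 440 with IgG and 759 in the input (1.79 ± 0.27, adjusted p = 0.000562). Arf6, which acts at the plasma membrane and in endocytic recycling, had 6062, 7068 and 7918 with HuD, 1877 and 2427 with IgG and 1463 in the input (1.69 ± 0.24, adjusted p = 0.000402). All HuD arrays of these genes lay above all other arrays, though the second-brightest probe set of Arf6 was at 0.26 and did not pass.

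Arf2 was lower, with 127, 65.1 and 20.5 on HuD arrays, 263 and 184 on IgG arrays and 318 in the input (−1.44 ± 0.40, adjusted p = 0.0104). The HuD values spread over a wide range, all below the rest, and without IgG array 1 the difference was −1.21 and just missed the threshold. None of the 4 probe sets of Arf2 was called in the fit over all probe sets. Those dimmer than the one shown lay between −0.41 and 0.03. Arf1 (0.50) and Arf3 (0.41), the bright members of Golgi coat recruitment, were above both IgG arrays on every HuD array without passing. Arf1 passed without IgG array 2 (0.66) and with quantile normalization (0.45) or 75th percentile centring (0.81), and Arf3 passed with 75th percentile centring (0.73) and when its probe sets were averaged (0.58). For Arf3, 2 of the other 4 probe sets were called higher, at 1.60 and 1.31. ARF genes are close in sequence, and a probe may pick up RNA of more than one of them. Probe sequences were not compared, so how far this touches the values of the family is not known.

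Of the Sec22 genes, Sec22b, a SNARE that drives fusion between the ER and the Golgi, was higher, and Sec22a and Sec22c did not pass. Sec22b had 5742, 8228 and 5495 with HuD, 727 and 847 with IgG and 638 in the input, a 7.85-fold difference (2.97 ± 0.26, adjusted p = 0.000125). A second probe set overlapped between the groups, with 322, 364 and 263 on HuD arrays, 308 and 144 on IgG arrays and 351 in the input (0.50). Sec22a had 166, 183 and 99.5 with HuD, 79.6 and 88.4 with IgG and 121 in the input (0.61 ± 0.28, adjusted p = 0.0774), and it passed without HuD array 3 (0.83) and with quantile normalization (0.92) or 75th percentile centring (0.93). Sec22c overlapped at 371, 273 and 426 with HuD, 298 and 225 with IgG and 483 in the input (0.40). The log2 ratio of Sec22b to Sec22a was 4.87, 5.26 and 5.39 with HuD, 2.77 and 2.87 with IgG and 2.13 in the input.

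Probe sets of the same gene often disagreed in size. Of the 37 members with more than 1 probe set, 16 had at least one that was called in the fit over all 45037 probe sets and at least one that was not, 5 had more than 1 called higher and 0 had more than 1 called lower. In 0 members were probe sets called in opposite directions. Averaging the probe sets of a gene lowered several differences by over 1.5 times without ending the call: Tram1 stood at 2.08, Sec22b at 1.74, Tmed7 at 1.11, Ssr3 at 1.01, Arf4 at 0.86, Arf6 at 0.73, Sec62 at 0.61, Sec11c at −0.81 and Tmed3 at −1.08. Of all 126 probe sets 20 were called higher and 9 lower, and over the array 5.73% and 8.7% were. The shares over the array include dim probe sets and those without a symbol, whereas 50 of the 57 members were bright enough to be tested. They are therefore not matched for level.

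**Figure D4:**
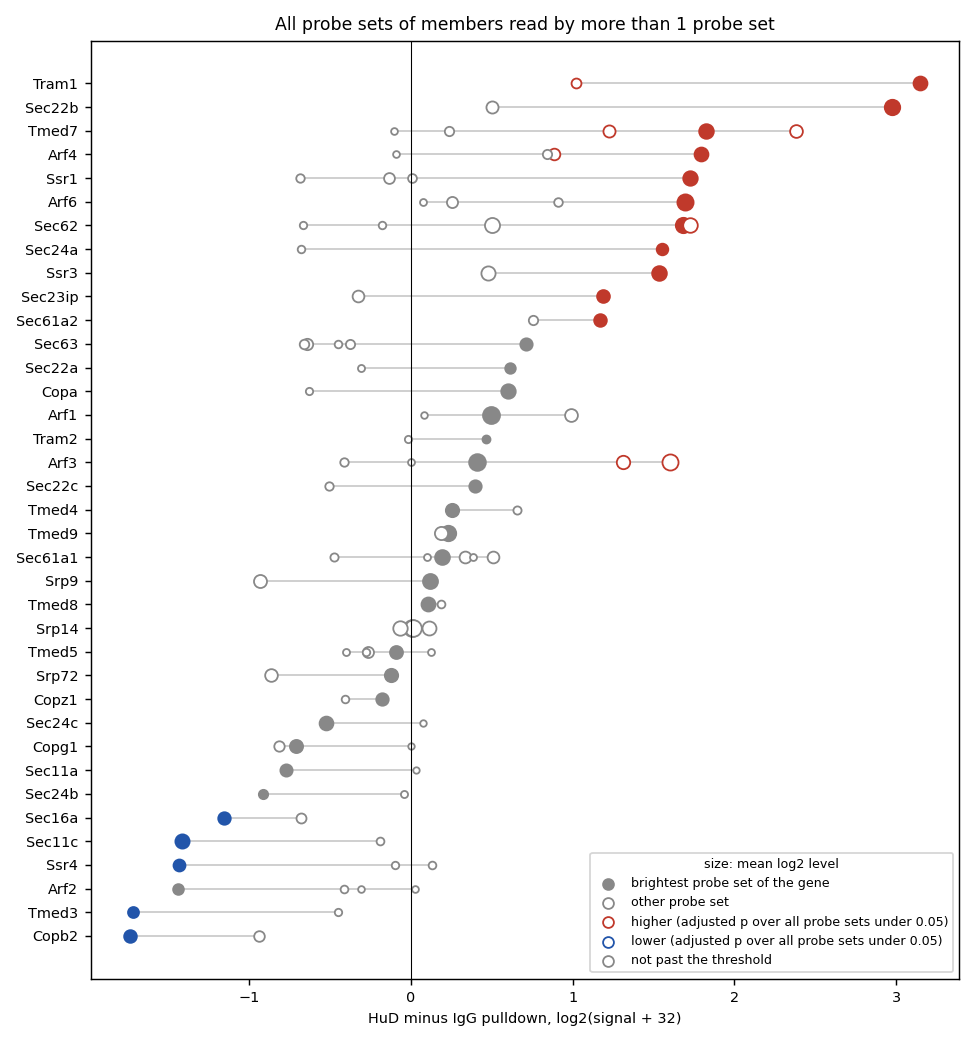
Log2 difference between HuD and IgG pulldowns for every probe set of the 37 members read by more than 1, filled for the brightest probe set of a gene and open for the others, with larger symbols for brighter probe sets and colours for calls in the fit over all probe sets. The probe sets of Sec22b are at 0.50 and 2.97, and for Tmed7 3 probe sets are called, at 1.22, 1.83 and 2.38.

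Set against the input, the RNA from which pulldowns start, the HuD samples had 11 members higher and 13 lower of 50, where 15.7% and 25.9% of all tested genes were called, or 41.6% in either direction. This comparison shares the HuD arrays with the one before and rests on 1 input array, whose spread was taken to equal that of the pulldown arrays. The largest differences were those of Sec22b (3.26 ± 0.33, adjusted p = 0.00128), Arf5 (2.80 ± 0.36), Tram1 (2.66 ± 0.34), Sec23a (2.57 ± 0.34) and Arf6 (2.23 ± 0.30), with adjusted p between 0.00143 and 0.00151 for the last 4. Sec24a (1.59), Sec23ip (1.58), Sec62 (1.24), Tmed9 (1.00), Arf3 (0.97) and Ssr1 (0.90) were higher too. Without HuD array 1 there were 7 members higher: Sec62 (1.18), Tmed9 (1.00), Arf3 (1.05) and Ssr1 (0.79) no longer passed. Tmed9 and Arf3 also failed to pass without HuD array 2 (1.00 and 0.83) or HuD array 3 (0.99 and 1.03), and Ssr1 without HuD array 3 (0.83). Ssr3 and Tmed10, higher than on IgG beads, were close to their input level (0.29 and 0.09), and Tmed7 (0.82), Arf4 (0.85) and Sec61a2 (0.80) did not pass either. Those last 3 did pass when either IgG array was left out, at unchanged differences, as the IgG arrays enter this comparison through the shared variance.

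The members lower than the input were Srp68 (−1.98 ± 0.49), Copg2 (−1.97 ± 0.32), Ssr4 (−1.96 ± 0.35), Arf2 (−1.91 ± 0.50), Tmed3 (−1.90 ± 0.34), Cope (−1.85 ± 0.37), Ssr2 (−1.73 ± 0.32), Sec11c (−1.47), Sec11a (−1.46), Copg1 (−1.23), Srp19 (−1.21), Copz1 (−1.13) and Copb2 (−1.10). Of the 7 tested subunits of the COPI coat, 5 were called lower than the input and 0 higher, while Copb1 lay above the input on every HuD array without passing (0.33). Copg1 (−1.16), Srp19 (−1.19), Copz1 (−1.18) and Copb2 (−1.18) did not pass without HuD array 1, and Srp19 (−1.14), Copz1 (−0.90) and Copb2 (−0.93) not without HuD array 3. With 75th percentile centring Copg1 (−0.88), Srp19 (−0.85), Copz1 (−0.77) and Copb2 (−0.74) did not pass, and with quantile normalization Copb2 (−0.90), Tmed9 (0.79), Ssr1 (0.75) and also Copz1 did not. With probe sets averaged Tmed9 (0.65), Sec23ip (0.63), Sec62 (0.56), Ssr1 (0.21), Sec11c (−0.59) and Copz1 (−0.51) fell short, while Ssr3 (1.16) and Srp72 (−1.02) passed. The averaged values of Tram1 (1.77), Sec22b (1.56), Sec24a (0.83), Arf6 (0.79), Sec11a (−0.72), Ssr4 (−0.76), Copg1 (−0.76) and Tmed3 (−1.01) were smaller by over 1.5 times and still past the threshold.

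The IgG pulldowns, which show what beads hold without HuD, differed from the input past the threshold in 0 of 50 members by limma, and 9 members had an unadjusted p under 0.05. Over all tested genes 0.022% were called higher and 0% lower, and 7.05% had an unadjusted p under 0.05. The members' median difference was −0.39, against −0.07 for all tested genes, and it was negative in every class but the ARF GTPases (0.12). The lowest value was that of Ssr3 (−1.24, unadjusted p = 0.00381, adjusted p = 0.631), followed by Copa (−1.03) and Tmed7 (−1.01), and the highest that of Tmed9 (0.76). For Ssr3, Arf4 and Tmed7, whose IgG signals lay below the input, the difference between HuD and IgG was larger than that between HuD and input. Copb2 had the opposite arrangement, with both IgG values above the input.

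**Figure D5:**
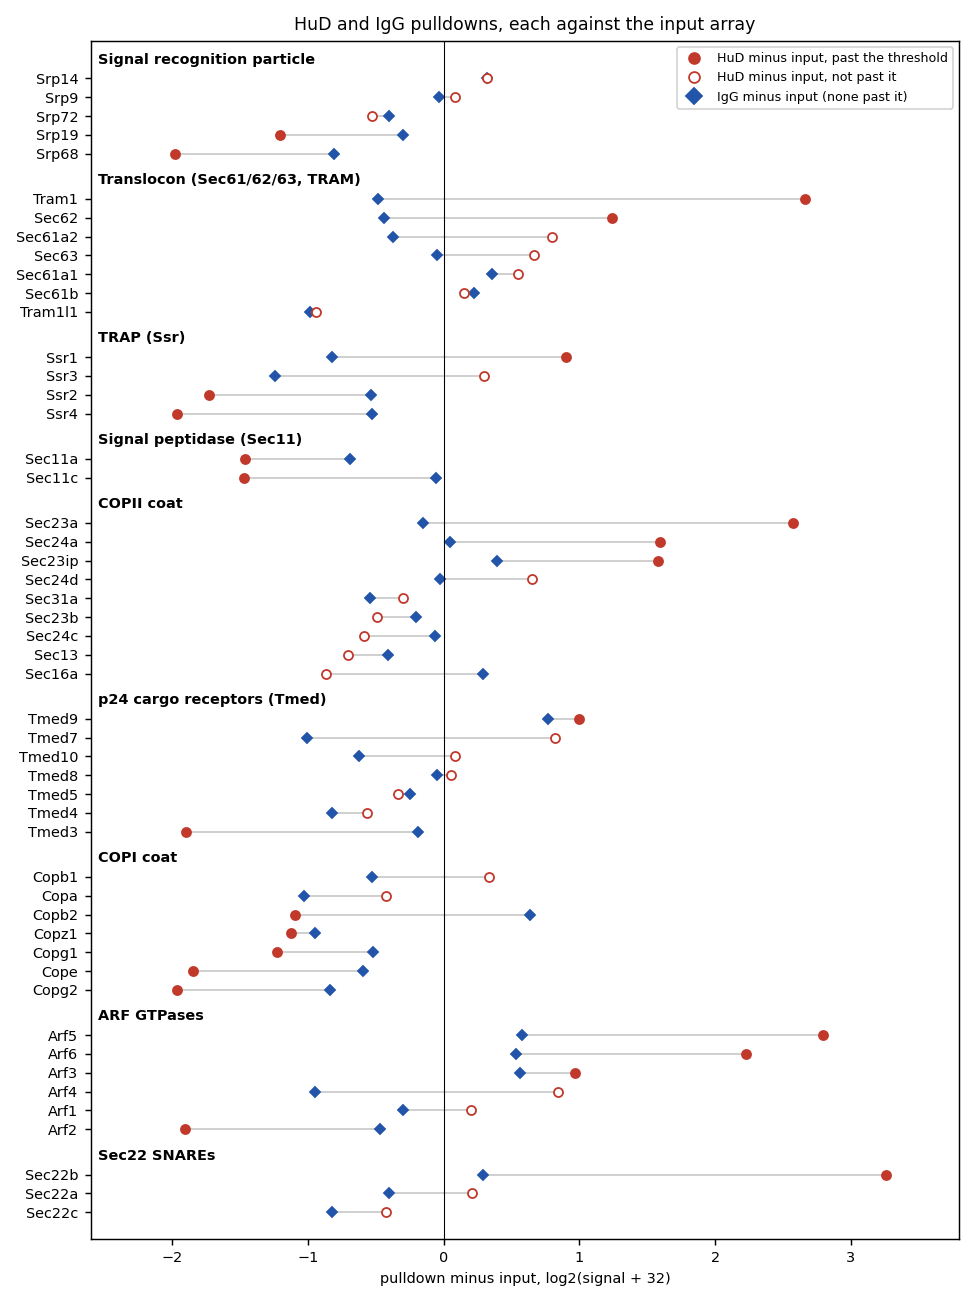
Log2 difference from the input array (x axis, log2(signal + 32)) of the HuD pulldowns (red circles, filled where past the threshold) and of the IgG pulldowns (blue diamonds, none past it) for the 50 tested genes by class. HuD values run from −1.98 for Srp68 to 3.26 for Sec22b and IgG values from −1.24 for Ssr3 to 0.76 for Tmed9.

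Other genes of the same route, listed by function, were read in the same fit. Of 114 tested 23 were higher in the HuD than in the IgG pulldown, 38 lower and 53 not past the threshold, or 20.2% and 33.3%, beside the 21.5% and 34% of all tested genes. Their median difference was −0.51. Among the 5 tested genes around the signal recognition particle receptor and signal peptidase, Spcs2 (1.94 ± 0.25) and Spcs3 (1.62 ± 0.23), noncatalytic subunits of signal peptidase, were higher while the catalytic Sec11 genes were lower. The receptor subunit Srpr was lower (−0.72 ± 0.26, adjusted p = 0.0355), a call lost without HuD array 1 (−0.74), 2 (−0.60) or 3 (−0.81), without IgG array 2 (−0.60), and with either other scaling.

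Of 15 genes of the ER membrane complex and the tail-anchor insertion route 3 were higher and 7 lower. Emc1 had 1861, 1888 and 2113 with HuD, 327 and 279 with IgG and 372 in the input (2.57 ± 0.24, adjusted p = 0.000134), and Get1, a receptor for tail-anchored proteins, was at 2.07 ± 0.26, while Emc7 was lower (−1.36 ± 0.28). Of 22 ER chaperones and oligosaccharyl transferase subunits 5 were higher and 8 lower, led by the disulfide reductase Dnajc10 (1.98 ± 0.24) and by Rpn1 (−1.71 ± 0.28) and Rpn2 (−1.47 ± 0.33), subunits of the transferase. The regulators and cargo receptors of COPII had 6 of 22 higher and 4 lower, with Ergic2 (1.76 ± 0.27), Ergic1 (1.69 ± 0.22) and Yif1b (−1.57 ± 0.26) as the largest.

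Partners of COPI and regulators of ARF had 4 of 21 higher and 6 lower. Kdelr2, a receptor that returns escaped ER proteins, had 1300, 1201 and 1334 with HuD, 259 and 431 with IgG and 231 in the input (1.83 ± 0.27), whereas the GTPase activators Arfgap1 (−1.64 ± 0.32) and Arfgap2 (2.83-fold) were lower. Of 29 SNAREs and tethers between the ER and the Golgi 3 were higher and 12 lower, with Bet1 (1.70 ± 0.32) and Trappc2 (1.47 ± 0.27) higher and Stx18 (−1.51 ± 0.25) lower. With probe sets averaged, Ergic1 (0.32) and Arfgap2 (−0.43) no longer passed. Emc1 (1.41), Spcs2 (0.95), Dnajc10 (0.89), Kdelr2 (0.89), Bet1 (0.64) and Stx18 (−0.62) then still passed at differences smaller by over 1.5 times, as did Get1.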

How the data were processed

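The data were intensities of 45101 probe sets on 6 arrays. The authors' deposited intensities were linear, 1 per probe set, and the mean without the lowest and highest 2% was 150.0 on each array. The software behind them is not given in the sources used here, and they hold no detection calls. Left out were 64 control probe sets. The platform annotation gave 34945 probe sets 1 symbol, 932 several and 9160 none. A RefSeq gene table of GRCm38.p6 held the Entrez identifiers of 34741, and 0 symbols needed an update. Each gene was read by its brightest probe set, by mean over the 6 arrays, and genes at or above the median level, a signal of about 61.9, were tested. Signals were taken as log2(signal + 32) and fitted with 1 mean per group and eBayes with trend (limma 3.58.1, R 4.3.3), with p-values adjusted by Benjamini-Hochberg, 3 residual degrees of freedom and a prior of 8.4. All probe sets were also fitted without a filter. The number of arrays limits the precision. Per-array signals are given for up to 4 tested members of each class that differed most in size between HuD and IgG, and up to 3 called genes of each list of other genes are named. Alternatives were scalings, pseudocounts of 8 and 128, no filter, other choices of probe set, each pulldown array left out, and blocks. The steps were tested on simulated data with known changes. Replicate numbers follow the order of deposit. The members and lists were chosen with earlier results of these data known.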

Additional observations from a re-analysis of the deposited data

How the results depend on the processing

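Between HuD and IgG, 10 of the 16 members called higher and 6 of the 13 called lower passed in every alternative in which they were tested. Over 50 members and 14 alternatives, 633 values stayed on their side of the threshold, 47 fell short of it and 17 moved past it. Among the 633, 29 values in 16 members changed sign without passing in either fit. A change of sign that involved a call occurred for Sec63, at −0.28 with probe sets averaged, and for Sec61b, which ran from −0.93 without IgG array 1 to 0.77 without IgG array 2. Copg1, Sec11a, Sec63, Srp68 and Tmed10 did not pass with no filter, nor Copg1, Sec11a and Tmed10 with probe sets averaged. The larger pseudocount shrank dim members by over 1.5 times, to 0.52 for Copb1, −0.67 for Copg2, −0.73 for Ssr2, −0.85 for Arf2 and −1.10 for Tmed3. Leaving out 1 HuD array gave 13 to 16 members higher and 9 to 12 lower. In these fits 1488 to 1811 of all 9097 tested genes were higher and 1982 to 2637 lower. Against the input 7 members were higher with no filter on low values and 7 to 14 with 1 array left out. Of the other genes of the route 23 were lower with 75th percentile centring and 25 to 41 with 1 array left out. Over all tested genes 3093 were lower than with IgG, 1702 with 75th percentile centring and 1982 without HuD array 1. With the suffix in the sample titles as a replicate block, 14 members were higher and 11 lower than with IgG. Over all tested genes 1908 were higher and 2927 lower with that block. Against the input it gave 7 members higher. On 4 pulldown arrays, with the replicate number in the titles as a block, 17 members were higher and 13 lower than with IgG. In that fit 2137 of all tested genes were higher and 3274 lower. Deviations from the group means correlated at −0.03 for the pair numbered 1 and 0.40 for the pair numbered 2. The deviations of the 2 IgG arrays are mirror images, with a correlation of −1. Each HuD array therefore correlates with both at the same size and opposite sign, and the check cannot decide whether the numbers mark pairs. The cause of these changes was not tested. With no detection calls, dim members could not be called absent.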

Other observations

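The second probe set of Ssr3 stood apart on HuD array 2, at 3297 against 884 and 881 on the other HuD arrays, 1264 and 756 on the IgG arrays and 315 in the input. For Srp14 the IgG arrays differed as those of Sec61b did, at 3998 and 8376, and 3 other probe sets of Srp14 showed the same order of the IgG arrays, with signals of 3406 and 7675, 757 and 1606, and 573 and 1072.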
